A study of Mus musculus with 2 samples.

Results

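The mitosis and spindle genes described here are 54 mouse genes chosen by name for their roles in cell division, and their levels were read from total RNA-seq of embryonic stomach. The members were found by matching the gene identifiers of both libraries to mouse gene symbols, and all 54 symbols matched, out of 43346 Ensembl genes in the files. The tissue was stomach of B6NCrl mouse embryos at 14.5 days of development (E14.5). Biological replicates 1 and 2 were each a single stomach of 1 pup, collected on day 15 (replicate 1) and day 17 (replicate 2) of the same month, and each library was made from 10 ng of RNA longer than 200 nucleotides with added spike-in RNAs. The libraries form 1 group with no second genotype, treatment or stage, so levels are described with their spread, the libraries are set against each other, and no test or p-value is given.

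Cell division is driven by a cyclin-dependent kinase that binds cyclins A and B, is held back by inhibitory phosphates and is switched on when the Cdc25 phosphatases remove them. Aurora and Polo-like kinases then build the spindle, condensin compacts the chromosomes, and kinetochores tie each chromatid to spindle microtubules while the spindle checkpoint holds back the anaphase-promoting complex. Once that complex is active, securin and the cyclins are destroyed, separase opens the cohesin ring, and kinesins, centralspindlin and anillin complete cytokinesis. In an embryonic organ these genes are used by the dividing cells of every layer.

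Expected counts summed to 25072242 (replicate 1) and 25599910 (replicate 2), and Ensembl genes held 23668322 and 23882647 of them. Spike-ins took 12.1% of TPM (a level per length of transcript, scaled to the same total in each library) in replicate 1 and 14.2% in replicate 2. The markers of stomach mesenchyme (4 of 4), epithelium (4 of 4), smooth muscle (3 of 3), enteric neural cells (4 of 4), endothelium (3 of 3), erythroid cells (3 of 3) and macrophages (3 of 3) reached 1 TPM in both libraries, and neither of 2 germ cell markers did. The summed level of 5 exocrine pancreas markers was 450 TPM in replicate 1 and 3.74 TPM in replicate 2, with Ptf1a, which defines that lineage, at 4.17 TPM in replicate 1 and listed at 0 in replicate 2. The labels give the sex as pooled although each library is described as 1 stomach. Xist was at 0.05 TPM in replicate 1 and 102 TPM in replicate 2, and the 4 Y-linked markers were found at 22.6 to 62.3 TPM in replicate 1 and at 0.01 TPM or less in replicate 2.

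All 54 mitosis genes were detected, taking 1 TPM or more in both libraries as detection, and all 54 also passed 5 TPM in both. Across the files, 34.9% of 43346 genes and 61.8% of 21474 protein-coding genes were detected by the same rule. The median member stood at 60.7 TPM in replicate 1 and 59.8 TPM in replicate 2, while the median detected protein-coding gene stood at 18.9 and 17.8 TPM. Of the 54 members, 50 lay above that median, 14 were among the top 10% of the 13271 detected protein-coding genes, and the lowest, Kif18b, lay at percentile 24.3. Together they took 162563 counts in replicate 1 and 169413 in replicate 2. In bulk tissue a level cannot tell a small share of cells with much of an RNA apart from a large share with little.

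The order of deposited levels began with Cdk1, Ube2c, Birc5, Top2a and Cenpa. Cdk1, the kinase that drives entry into mitosis, was at 342 TPM in replicate 1 and 340.3 TPM in replicate 2 (341 ± 1.27, SD, n = 2), on chromosome 10 at 69335146 to 69352938 of mm10. Ube2c, the ubiquitin-conjugating enzyme of the anaphase-promoting complex (chromosome 2), was at 301 and 319 TPM (310.2 ± 12.6, SD, n = 2). The ranges of the libraries did not overlap between these members or between Ube2c and Birc5. Birc5, which encodes survivin, averaged 222 ± 5.38 TPM, Top2a, the topoisomerase that untangles sister chromatids, averaged 202 ± 8.41 TPM, and Cenpa, the histone H3 variant of centromeres, averaged 177 ± 12.6 TPM (SD, n = 2 each). At the other end stood Kif18b, a plus-end kinesin, with 5.99 TPM (274 counts) in replicate 1 and 7.40 TPM (310 counts) in replicate 2. Of the 53 pairs of neighbours in the order, 24 had separate ranges and 29 overlapped, so most single steps in the order are within the spread of the libraries. The SD was a median 3.61% of the mean level and at most 14.9%, for Kif18b.

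**Figure D1:**
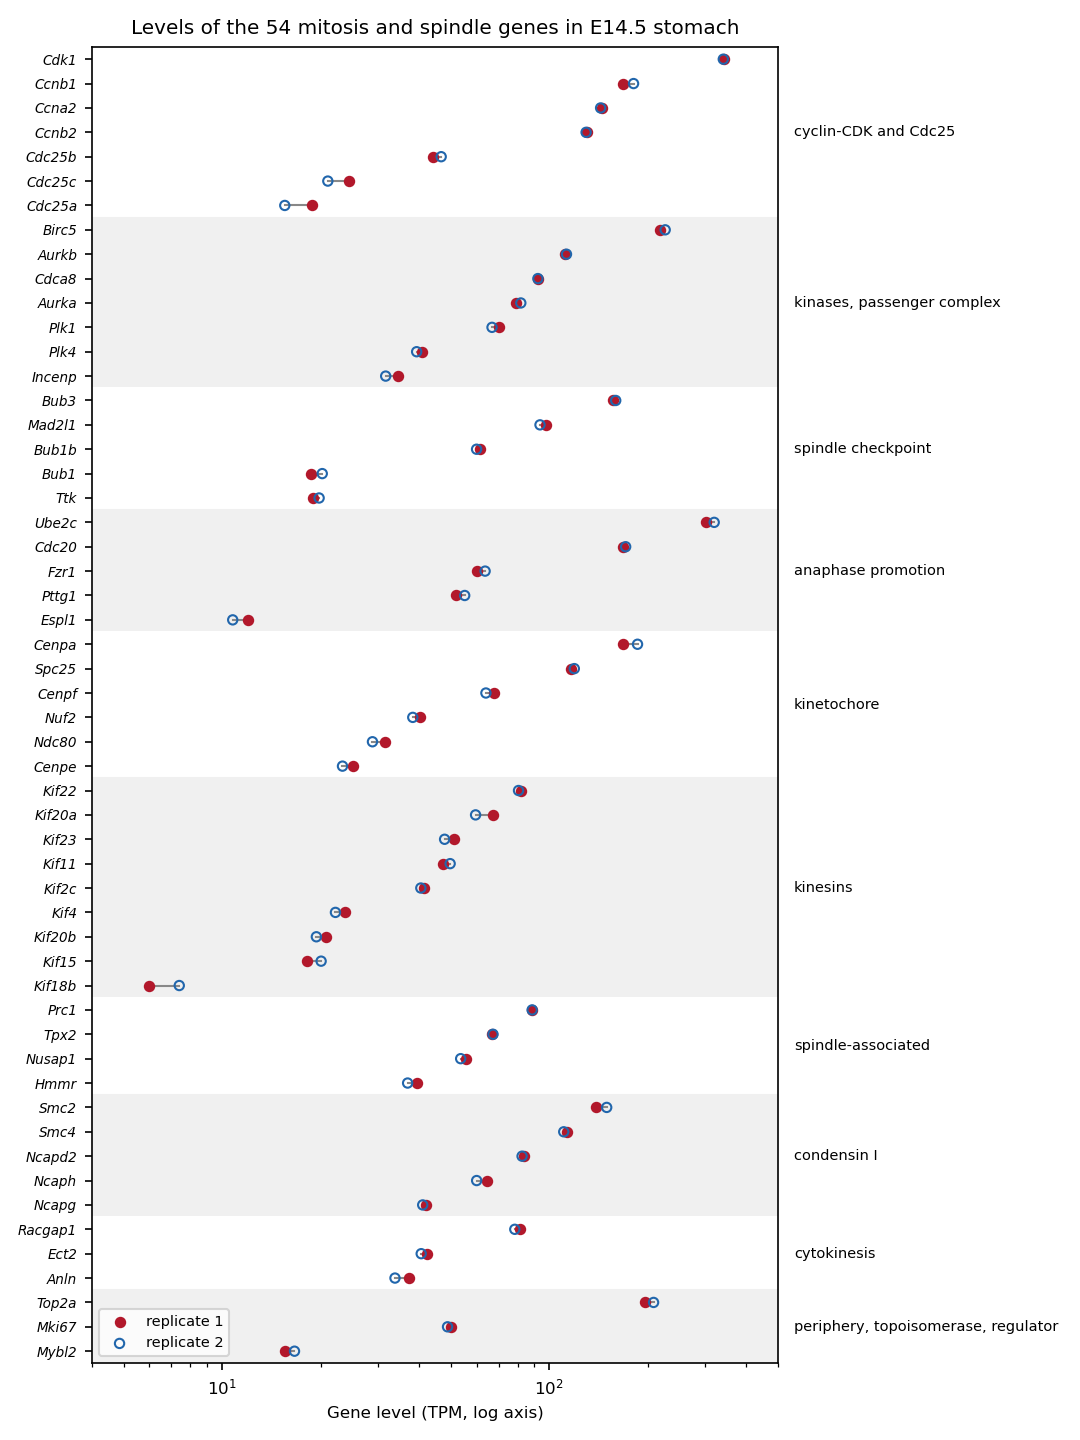
Level of each of the 54 genes in TPM on a log axis, grouped by role, with a filled point for replicate 1, an open point for replicate 2 and a line joining them. The points of most genes nearly coincide, and levels span 5.99 TPM (Kif18b, replicate 1) to 342 TPM (Cdk1, replicate 1).

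Promoters of cell-cycle genes are known for a pair of short elements, the CCAAT box bound by NF-Y and the cell cycle homology region (CHR) bound by the MuvB complex, which also recruits B-Myb and FoxM1. The stretches below, from the RefSeq promoter table on GRCm38.p6 (mm10), run from 120 bases before to 30 bases after the annotated start of the 8 most abundant members and of the least abundant one, Kif18b. They are shown because they let the letters be compared between members at the ends of the range. Capitals mark CHR letters (TTTGAA or TTCGAA, and TTCAAA for the other strand) and CCAAT-box letters (CCAAT, and ATTGG for the other strand).
Cdk1, chr10:69352883-69353032, minus strand: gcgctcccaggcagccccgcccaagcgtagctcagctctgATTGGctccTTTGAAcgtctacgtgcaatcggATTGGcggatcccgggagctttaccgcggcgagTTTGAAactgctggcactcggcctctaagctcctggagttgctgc
Ube2c, chr2:164769809-164769958, plus strand: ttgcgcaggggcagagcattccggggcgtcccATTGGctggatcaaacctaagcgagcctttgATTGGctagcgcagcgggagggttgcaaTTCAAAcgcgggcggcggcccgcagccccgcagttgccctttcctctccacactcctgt
Birc5, chr11:117849117-117849266, plus strand: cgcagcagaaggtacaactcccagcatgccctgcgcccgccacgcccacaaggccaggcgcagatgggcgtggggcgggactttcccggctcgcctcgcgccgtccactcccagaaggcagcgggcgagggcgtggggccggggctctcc
Top2a, chr11:99024160-99024309, minus strand: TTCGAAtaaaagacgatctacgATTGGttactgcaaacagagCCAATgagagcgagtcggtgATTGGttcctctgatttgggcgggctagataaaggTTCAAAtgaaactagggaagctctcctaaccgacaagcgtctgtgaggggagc
Cenpa, chr5:30666766-30666915, plus strand: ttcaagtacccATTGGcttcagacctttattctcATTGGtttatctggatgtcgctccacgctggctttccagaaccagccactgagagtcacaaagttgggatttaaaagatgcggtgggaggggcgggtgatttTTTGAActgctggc
Ccnb1, chr13:100786457-100786606, minus strand: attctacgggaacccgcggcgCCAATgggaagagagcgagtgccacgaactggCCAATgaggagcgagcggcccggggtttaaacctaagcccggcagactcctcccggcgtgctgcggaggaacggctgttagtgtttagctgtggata
Cdc20, chr4:118437314-118437463, minus strand: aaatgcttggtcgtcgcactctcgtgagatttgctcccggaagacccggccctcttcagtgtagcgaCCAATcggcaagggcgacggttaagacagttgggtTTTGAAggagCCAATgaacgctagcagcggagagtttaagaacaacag
Bub3, chr7:131560250-131560399, plus strand: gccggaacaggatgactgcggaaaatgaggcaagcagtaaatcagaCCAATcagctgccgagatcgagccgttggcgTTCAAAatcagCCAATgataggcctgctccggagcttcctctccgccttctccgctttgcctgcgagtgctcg
Kif18b, chr11:102925095-102925244, minus strand: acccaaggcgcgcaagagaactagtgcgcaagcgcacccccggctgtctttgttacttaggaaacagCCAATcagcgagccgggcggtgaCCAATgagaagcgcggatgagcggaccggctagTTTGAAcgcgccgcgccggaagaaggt

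Over the whole window of the table, 250 bases before to 50 after the start, 47 of the 54 members had an entry, with 50 promoters in all, and Aurkb, Tpx2, Ccna2, Cdc25c, Smc4, Kif20a and Incenp had none. CHR letters were present in 35 of 47 members (74.5%), against 21.7% of 27025 genes in the table and 16.4% of 10335 detected protein-coding genes. Within 50 bases of the start the shares were 68.1% of members (32 of 47), 6.12% of all genes and 4.36% of detected protein-coding genes. CCAAT letters were common everywhere, with 34 members (72.3%), 41.1% of all genes and 43.1% of detected protein-coding genes. Both kinds of letters stood together in 30 members (63.8%), against 8.61% of all genes and 6.91% of detected protein-coding genes.

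In part of the members the letters stood at a like spacing. Counting from the first base of the CCAAT letters to the first base of the nearest CHR letters after them, the median distance over 30 members was 31.5 bases, with a range of 9 to 153. It lay between 20 and 45 bases in 16 members (34.0%), against 1.18% of all genes and 1.22% of detected protein-coding genes. That range and the limit of 50 bases from the start were chosen after the positions were seen. Because the nearest pair is counted, Cdk1 enters with 9 bases although its CCAAT letters at -48 also precede CHR letters at -15. Kif18b, at the low end of the levels, had its nearest pair 33 bases apart, and Ube2c, near the top, 28 bases.

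Other genes of the pathway are described further on. For promoter letters the meiosis genes among them were left out, and 97 of the rest had an entry. These held the letters more often than all genes did. CHR letters were in 41.2% of them, CHR letters within 50 bases in 27.8%, CCAAT letters in 59.8%, both kinds in 27.8% and the spacing of 20 to 45 bases in 6.19%.

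E2F letters (TTTCGCGC or TTTGGCGC, both strands) were found in 4 members (8.51%), namely Cdc25a, Cdk1, Kif15 and Ncapd2, against 6.19% of the other pathway genes, 0.929% of all genes and 1.72% of detected protein-coding genes. Letters of different motifs overlapped at 1 place in the members. Neither CHR nor CCAAT letters were in the window of 8 members, Birc5, Mad2l1, Mybl2, Ncaph, Nuf2, Nusap1, Plk4 and Pttg1, whose mean levels run from 16.1 to 222 TPM. The mean level had a median of 60.6 TPM over the 35 members with CHR letters and 54.03 TPM over the 12 without. Mean GC content was 59.2% in member promoters, 53.6% over all genes and 61.0% over detected protein-coding genes. The matches are letters in a fixed window, not shown sites of binding, and binding was not analysed here.

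**Figure D2:**
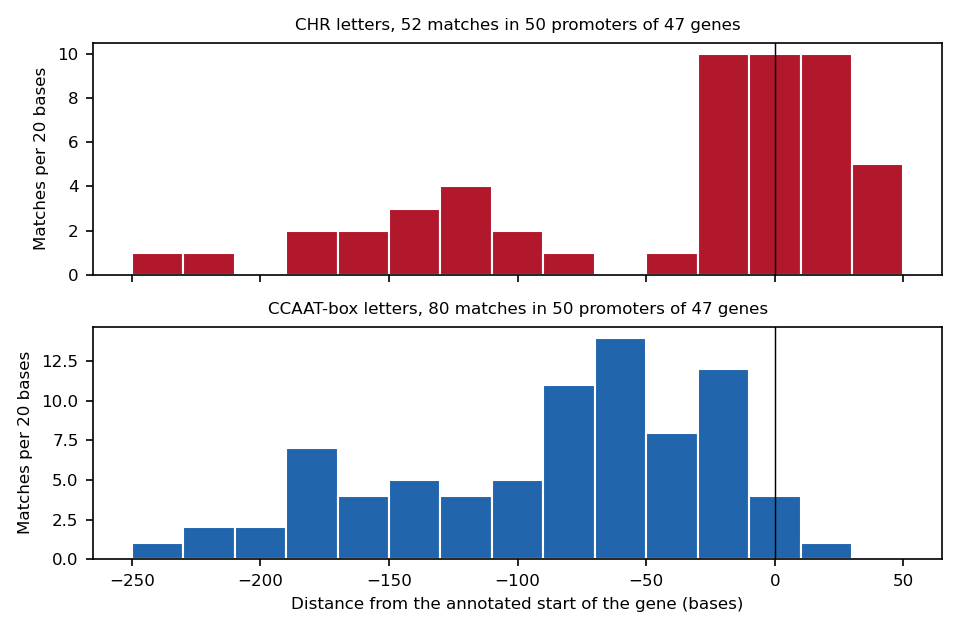
Positions of CHR letters (52 matches, upper panel) and CCAAT-box letters (80 matches, lower panel) in 50 promoters of 47 genes, as bases from the annotated start (vertical line), in bins of 20 bases. A site inside more than 1 annotated promoter of a gene is counted in each. CHR letters are densest around the start and CCAAT letters before it.

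Among the cyclin-CDK and Cdc25 genes (7 members), levels fell into a high group of the kinase and its cyclins and a lower group of phosphatases. Ccnb1, cyclin B1, on chromosome 13 at 100778650 to 100786570 of mm10, was at 168 TPM in replicate 1 and 181 TPM in replicate 2. Ccna2, cyclin A, was at 144 TPM in both, and Ccnb2, cyclin B2, at 131 and 129.6 TPM. The phosphatases that activate Cdk1 stood lower in both libraries, with Cdc25b at 44.2 and 46.7 TPM, Cdc25c at 24.5 and 21.1 TPM and Cdc25a at 18.8 and 15.6 TPM. The ratio of Ccnb1 to Ccnb2 was 1.28 in replicate 1 and 1.40 in replicate 2, and that of Cdc25b to Cdc25a was 2.35 and 3.01. The ratio of Cdk1 to Ccnb1 was 2.04 in replicate 1 and 1.88 in replicate 2, and on protein-coding transcripts alone 1.22 and 1.09.

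The mitotic kinases and the chromosomal passenger complex (7 members) had a median of 78.9 TPM in replicate 1 and 81.9 TPM in replicate 2. The passenger complex, which corrects faulty kinetochore attachments and later directs the cleavage furrow, is built of Aurkb (its kinase), Incenp (its scaffold), Birc5 and Cdca8 (borealin), and its subunits differed widely in level. Birc5 was at 218 TPM in replicate 1 and 226 TPM in replicate 2, Aurkb at 112 and 113 TPM, and Cdca8 at 92.3 TPM in both. Incenp was the lowest at 34.6 and 31.6 TPM, so the ratio of Birc5 to Incenp was 6.32 in replicate 1 and 7.15 in replicate 2. Against Incenp, Aurkb stood at 3.24 and 3.57, and Cdca8 at 2.67 and 2.92. Aurka, the Aurora kinase of centrosomes and spindle poles, was at 78.9 and 81.9 TPM, below Aurkb in both libraries. Plk1, the Polo-like kinase that acts through mitosis, was at 70.3 and 66.8 TPM, and Plk4, which starts centriole duplication, was lower at 40.9 and 39.3 TPM.

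The spindle checkpoint genes (5 members) spanned 19.4 to 158 TPM in mean level. Bub3, which docks the checkpoint kinases at kinetochores, was the highest at 157 TPM in replicate 1 and 159.6 TPM in replicate 2. Mad2l1, which encodes the Mad2 protein that binds and holds Cdc20, followed at 97.7 and 93.7 TPM, and Bub1b, which encodes BubR1, at 61.3 TPM and 59.96 TPM. The kinases Bub1, at 18.8 and 20.2 TPM, and Ttk, which encodes Mps1, at 19.0 and 19.8 TPM, were the lowest and overlapped each other. The ratio of Bub3 to Bub1 was 8.35 in replicate 1 and 7.89 in replicate 2.

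The genes of anaphase promotion (5 members) held both the second highest member and the second lowest. Cdc20, the co-activator that the checkpoint holds back, was at 168 TPM in replicate 1 and 171 TPM in replicate 2. Fzr1, which encodes Cdh1, the co-activator used from late mitosis into G1, was at 60.1 and 63.7 TPM. The ratio of Cdc20 to Fzr1 was 2.79 in replicate 1 and 2.69 in replicate 2, and it was 3.71 on average when only protein-coding transcripts were counted, since 68.6% and 66.9% of Fzr1 TPM lay on those. Securin (Pttg1), the inhibitor of separase, was at 51.8 and 55.2 TPM, and separase (Espl1), the protease that cuts cohesin, was at 12.0 and 10.8 TPM. Securin thus stood at 4.31 times the level of separase in replicate 1 and 5.12 times in replicate 2.

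As deposited, kinetochore genes (6 members) ran from Cenpa, at 168 TPM in replicate 1 and 186 TPM in replicate 2, down to Cenpe, the kinesin that moves chromosomes to the spindle equator, at 25.1 and 23.3 TPM. On protein-coding transcripts alone Cenpa averaged 56.2 TPM, below Spc25 at 106 TPM. The NDC80 complex, the main microtubule binder of the kinetochore, has 4 subunits in 2 pairs, and the subunits of the Spc24-Spc25 pair were above those of the Ndc80-Nuf2 pair. Spc25 was at 117 and 119 TPM, and its partner Spc24, which is not among the 54, was at 66.7 and 65.2 TPM. Nuf2 was at 40.3 and 38.3 TPM and Ndc80 at 31.6 and 28.8 TPM. The ratio of Spc25 to Ndc80 was 3.69 in replicate 1 and 4.14 in replicate 2, while that of Nuf2 to Ndc80 was 1.28 and 1.33. Cenpf, a large coiled-coil protein of the outer kinetochore, was listed at 67.8 and 64.0 TPM, a level that depends on the transcripts described further on.

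The kinesins (9 members) had a median of 41.4 TPM in replicate 1 and 40.5 TPM in replicate 2. Kif22, a chromosome-bound kinesin, was the highest at 81.7 and 80.6 TPM. Kif20a, a kinesin of the central spindle and cytokinesis on chromosome 18, was at 67.3 and 59.5 TPM. Kif23, the motor of centralspindlin, was at 51.3 and 47.9 TPM, and Kif11, the motor that pushes spindle poles apart, at 47.3 and 49.8 TPM. Kif15, which can share that work with Kif11, was lower at 18.2 and 20.1 TPM. Kif2c, which takes microtubule ends apart at centromeres, was at 41.4 and 40.5 TPM. Kif4, the chromokinesin and the only X-linked member, was at 23.8 and 22.2 TPM, and Kif20b, a kinesin of late cytokinesis, at 20.7 and 19.4 TPM.

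Among spindle-associated proteins (4 members), Prc1, which bundles the antiparallel microtubules of the central spindle, was at 88.8 TPM in replicate 1 and 88.7 TPM in replicate 2. Tpx2, the activator of Aurora A on spindle microtubules, was at 67.0 and 67.3 TPM. Nusap1, at 55.6 and 53.6 TPM, and Hmmr, at 39.3 and 36.9 TPM, both bind spindle microtubules. In cytokinesis (3 members), Racgap1, the partner of Kif23 in centralspindlin, was at 81.3 and 78.5 TPM, which is 1.58 times Kif23 in replicate 1 and 1.64 times in replicate 2. Ect2, the exchange factor that activates RhoA at the cell equator, was at 42.4 and 40.6 TPM, and Anln, the scaffold anillin, at 37.2 and 33.8 TPM. Of the last 3 members, Mki67 encodes the Ki-67 protein that coats mitotic chromosomes and was at 50.01 and 48.9 TPM. Mybl2 encodes B-Myb, a regulator of these genes, and was at 15.6 and 16.7 TPM. Mki67 stood at 0.25 times the level of Top2a in replicate 1 and 0.23 times in replicate 2 as deposited. The ratio was 0.39 in both on the length of the most-read transcript, where Top2a averaged 135 TPM, and 0.43 in both on protein-coding transcripts.

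Condensin I (5 members) compacts chromosomes after the nuclear envelope breaks down, and condensin II shares its Smc2 and Smc4 core but has its own 3 other subunits. Smc2 was listed at 139 TPM in replicate 1 and 149.8 TPM in replicate 2, Smc4 at 113 and 111 TPM, and Ncapd2 at 83.6 and 82.6 TPM. Ncaph was at 64.7 and 59.99 TPM and Ncapg at 41.9 and 41.0 TPM. The subunits of condensin I did not all exceed their condensin II counterparts. Ncapd2 stood at 4.58 times Ncapd3 in replicate 1 and 4.38 times in replicate 2, but at 2.15 and 2.07 times on the length of the most-read transcript and 1.85 and 1.75 times on protein-coding transcripts alone. Ncapg stood at 2.44 and 2.46 times Ncapg2. Ncaph instead stood at 0.59 times Ncaph2 in replicate 1 and 0.53 times in replicate 2, with Ncaph2 at 109.6 and 114 TPM, and at 0.88 and 0.80 times on protein-coding transcripts. The summed level of the 3 subunits particular to each complex was 1.31 times as high for condensin I as for condensin II in replicate 1 and 1.23 times in replicate 2.

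**Figure D3:**
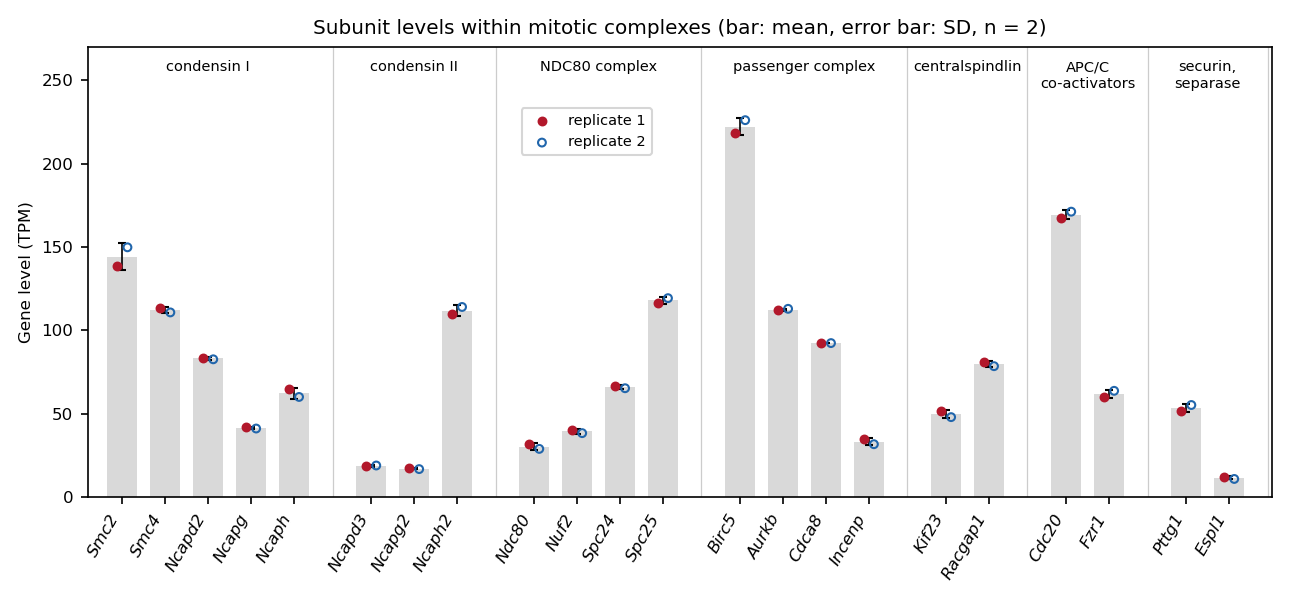
Levels of subunits in TPM for 7 mitotic complexes or pairs, with the bar at the mean, the error bar at the SD (n = 2), a filled point for replicate 1 and an open point for replicate 2. Subunits of 1 complex differ by more than the libraries do, with Birc5 at 222 TPM and Incenp at 33.1 TPM, and Ncaph2 is the only condensin II subunit shown that exceeds its counterpart.

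Gene levels rest on how reads were shared among a gene's transcripts, because TPM divides reads by transcript length. Of the 54 members, 16 had 1 annotated transcript and 38 had several, with up to 14 for Racgap1. The transcript with the largest deposited share was the same in both libraries for 37 of the 38, the exception being Kif20a, where 1 of its 2 coding transcripts held 47.2% in replicate 1 and 63.8% in replicate 2. That transcript was protein-coding in 35 of the 38. In 32 of the 54 members, 90% or more of TPM lay on protein-coding transcripts in both libraries. Under 60% did in both for 7 members, Cdk1, Top2a, Cenpa, Cenpf, Smc2, Smc4 and Ncapd2. Transcript types are from GENCODE M21, a later release than the one used for counting. The 6 member transcripts absent from it, all of Plk4, counted as not protein-coding.

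Of all members, Smc2 had the largest gap between its deposited level and one recomputed on a single transcript length. A processed transcript of 643 nucleotides, Smc2-203, held 57.1% of Smc2 TPM in replicate 1 and 57.6% in replicate 2, but 18.0% and 20.8% of its reads. The coding transcript of 5404 nucleotides held 69.0% and 67.1% of the reads and 22.4% and 19.1% of the TPM. Recomputed on the length of the transcript with most reads, Smc2 averaged 46.3 TPM and ranked 31 of the 54, against rank 9 as deposited. On that scale the ratio of Smc4 to Smc2 was 1.25 in replicate 1 and 1.26 in replicate 2, against 0.82 and 0.74 on deposited TPM. Smc4 itself averaged 58.1 TPM on that scale against 112 TPM as deposited, and its most-read transcript is annotated for nonsense-mediated decay. On protein-coding transcripts alone the ratio was 1.40 in replicate 1 and 1.69 in replicate 2.

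Cdk1 and Cenpa illustrate different kinds of non-coding transcript. In Cdk1, coding transcripts held 54.2% of TPM in replicate 1 and 51.9% in replicate 2, and 2 short retained-intron transcripts of 475 and 378 nucleotides held 22.5% each in replicate 1 and 24.4% and 22.8% in replicate 2. With the length of the most-read transcript Cdk1 averaged 250.3 TPM and stood behind Ube2c (329 TPM). It was then at 254 TPM in replicate 1 and 247 TPM in replicate 2, a range that overlaps that of Birc5 (249.1 and 257 TPM). Members with 1 transcript also rose slightly on the recomputed scale, such as Bub3 from 158 to 167 TPM on average. In Cenpa, coding transcripts held 31.5% and 31.9% of TPM, an average of 56.2 TPM that ranked 23 of the 54, against rank 5 as deposited. A transcript annotated for nonsense-mediated decay held the largest share of Cenpa, at 43.0% and 44.6%. All its main transcripts are of similar length, so the level of Cenpa moved little on the recomputed scale, to 191 TPM. In Cenpf, a decay transcript of 609 nucleotides held 35.9% of TPM in replicate 1 and 33.9% in replicate 2 but 4.79% and 4.47% of the reads, while the coding transcript of 11130 nucleotides held 23.8% and 24.6% of TPM and 68.7% and 70.2% of the reads. Averaged over the libraries, Cenpf was at 24.3 TPM on that scale against 65.9 TPM as deposited, and Ncapd2 at 41.3 TPM against 83.1 TPM. In Ncapd2 the coding transcript of 4629 nucleotides held 82.7% and 82.6% of the reads but 38.8% and 38.9% of the TPM. The deposited and recomputed levels had a Spearman correlation of 0.94 across the 54 members, as a description of values that share the same reads.

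**Figure D4:**
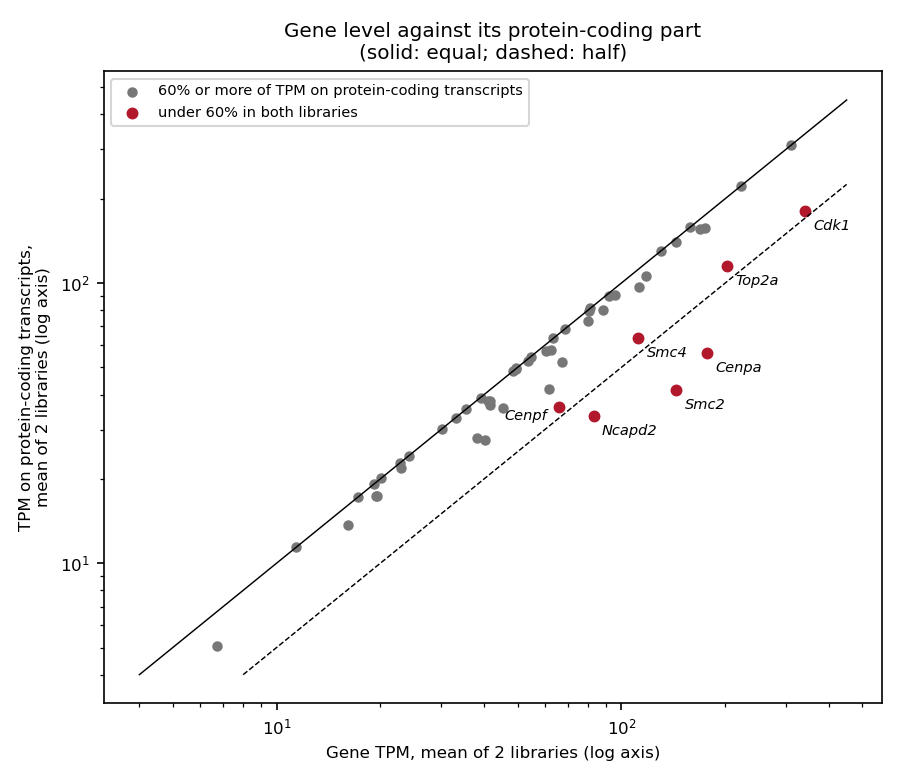
Level on protein-coding transcripts against the whole gene level, both in TPM and averaged over the libraries, on log axes, with a solid line where both are equal and a dashed line where the coding part is 50%. The 7 named genes in red had under 60% of TPM on protein-coding transcripts in both libraries, and Cenpa, Smc2 and Ncapd2 lie below the dashed line.

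Longer members tended to lower levels, with a Spearman correlation of -0.63 between deposited gene length and mean TPM across the 54 genes. Length also enters TPM, so both axes share it. The correlation of the length of the most-read transcript was -0.63 with recomputed TPM and -0.49 with deposited TPM.

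Between the libraries the members differed little. The log2 ratio of replicate 1 over replicate 2, from expected counts with edgeR TMM library sizes and 0.5 added, had a median of -0.03 over the 54 members and 0.01 over the 12761 genes whose mean count reached 100. With these sizes none of the 54 members was over 2-fold, over 1.5-fold or over 1.25-fold apart, against 0.298%, 1.25% and 7.42% of all 12761 genes. The ratios ran from -0.21 to 0.21 on the log2 scale, and 95% of members lay within 0.19 of 0, against 0.38 for all genes, whose depth was not matched to that of the members. By the same ratio 20 members were higher in replicate 1 and 34 in replicate 2, against 51.9% and 48.1% of all genes. This split depends on the scaling, for members and for all genes. With DESeq2 size factors 38 members were higher in replicate 2, against 51.4% of all genes. With spike-in counts, which add 0.27 to every log2 ratio, 0 members were, against 5.12% of all genes. By deposited TPM 21 members were, with no share of all genes taken. The count over 1.25-fold depends on the scaling too. With spike-in sizes some members passed it, such as Cdc25a at a log2 ratio of 0.48 and Cdc25c at 0.42, and 0 passed 1.5-fold. The pancreas markers and sex-linked genes given above also differed between these libraries, and their part in the members' ratios was not tested. The X-linked Kif4 had a log2 ratio of 0.01.

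The members lowest by this ratio were Cenpa, Kif15, Bub1, Pttg1 and Mybl2. Cenpa was read 3042 times in replicate 1 and 3585 times in replicate 2, and its log2 ratio was -0.21 with a 95% exact binomial interval of -0.29 to -0.14 that covers counting error only. Kif15 had 1449 and 1695 counts (-0.20, interval -0.31 to -0.10). Bub1 had 966 and 1113 counts (-0.18, interval -0.31 to -0.06), Pttg1 had 569 and 655 (-0.18, interval -0.35 to -0.02) and Mybl2 had 759 and 859 (-0.16, interval -0.30 to -0.01). All 5 were higher in replicate 2 by more than counting error on this scaling, and all 5 lie above 0 with spike-in scaling. The members highest by the ratio were Cdc25a, Cdc25c, Kif20a, Espl1 and Anln. Cdc25a had 1119 counts in replicate 1 and 981 in replicate 2 (0.21, interval 0.09 to 0.34), and Cdc25c had 760 and 694 (0.15, interval 0.00 to 0.30). Kif20a had 3932 and 3694 counts (0.11, interval 0.05 to 0.18), Espl1 had 1322 and 1260 (0.09, interval -0.02 to 0.20) and Anln had 3341 and 3216 (0.08, interval 0.01 to 0.15).

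Over all 54 members the counting interval left 0 out for 21, against 34.9% of all 12761 genes by the same rule, and held it for 33. Those 21 comprised 4 with the higher scaled count in replicate 1 (19% of all genes) and 17 with the higher scaled count in replicate 2 (15.9% of all genes), with TMM sizes. Without a second pair of libraries these differences between embryos cannot be told apart from those of library preparation. Class medians of the log2 ratio ran from -0.09 (spindle checkpoint) to 0.01 (condensin I) with TMM sizes. All lie above 0 with spike-in sizes, as does the median of all genes (0.27). Across members the ratio had a Spearman correlation of 0.36 with the length of the most-read transcript, and across 12761 genes one of 0.09, as a description from a single pair of libraries.

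**Figure D5:**
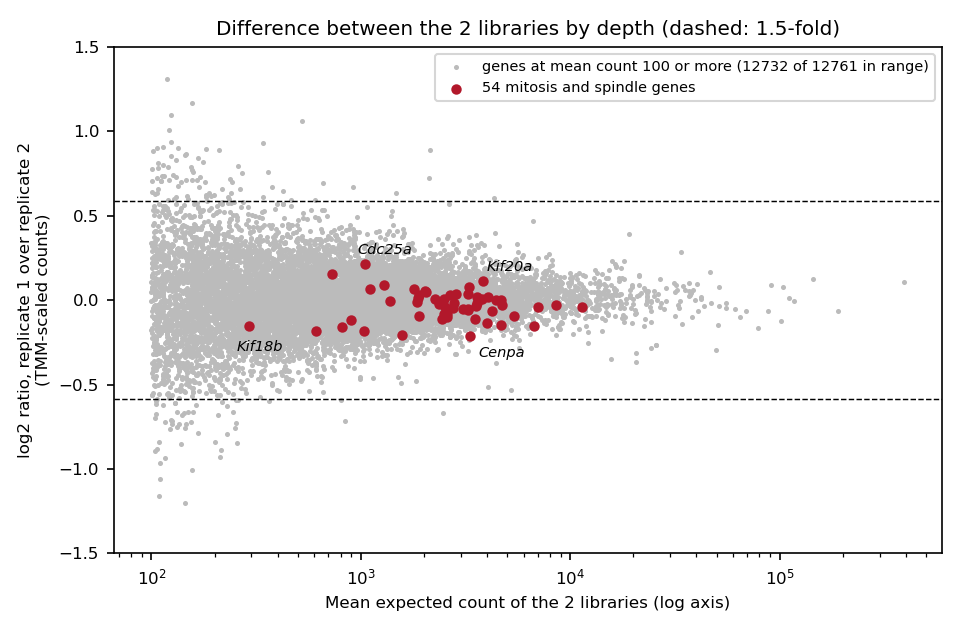
Log2 ratio of replicate 1 over replicate 2 against the mean expected count on a log axis, for genes whose mean count reached 100 (grey) and for the 54 members (red), with dashed lines at 1.5-fold. All members lie between -0.21 and 0.21, inside the dashed lines, and the spread of all genes narrows with depth.

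Some member levels could take reads from a neighbour. It is not given in the sources used here whether counting used strand. Without strand, some reads of overlapping genes on opposite strands could not be told apart. Kif20a shares 1271 exonic bases with Cdc23 on the other strand, a subunit of the anaphase-promoting complex, and its count had a deposited posterior SD of 0.49% in replicate 1 and 0.51% in replicate 2, the largest among the members. Ncapg shares 944 bases with Lcorl, Prc1 911 with Rccd1, Kif4 832 with Pdzd11, Cdc25c 623 with Gm3550, Ube2c 592 with Tnnc2 and Ccna2 510 with Exosc9. Cdc23 had the same posterior SD as Kif20a, 19.22 counts in replicate 1 and 18.95 in replicate 2. The posterior SD was 0 in both libraries for 38 members and over 0.1% for 4. Prc1 was among the 38, and its partner Rccd1 also had 0 in both. The processed pseudogene Ccnb1-ps took 14.03 counts in replicate 1 and 24.5 in replicate 2, against 6294 and 7118 for Ccnb1.

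The other genes of the pathway, 126 in 9 lists, were detected in 115 cases, and 0 of the 113 whose mean count reached 100 were over 1.5-fold apart between the libraries, against 1.25% of all genes. All 27 other kinetochore genes were detected, with a median of 26.5 TPM in replicate 1 and 26.7 TPM in replicate 2, and Zwint, which recruits the RZZ complex, was the highest at 192 and 187 TPM. Pmf1, a subunit of the MIS12 complex, followed at 108 and 98.9 TPM. All 11 genes of cohesin and its protectors were detected at a median of 39.9 and 37.4 TPM, led by the ring subunits Smc1a at 80.03 and 74.0 TPM and Rad21 at 65.6 and 59.6 TPM. On the most-read transcript Rad21 averaged 66.2 TPM, Smc3 61.6 TPM and Smc1a 59.9 TPM. All 17 other spindle and cytokinesis genes were detected at a median of 21.5 and 19.5 TPM, led by the microtubule regulators Tacc3 at 129 TPM in both and Ckap5 at 71.3 and 69.5 TPM. On the most-read transcript Ckap5 averaged 43.8 TPM, below Ckap2l at 47.1 TPM.

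The anaphase-promoting complex and its partners, all 16 detected, had the highest median of these lists at 86.7 TPM in replicate 1 and 85.7 TPM in replicate 2. Anapc5, a scaffold subunit, was at 271 and 259 TPM, and Ube2s, the enzyme that lengthens the ubiquitin chains that Ube2c begins, at 242 and 259 TPM. Ube2c stood at 1.24 and 1.23 times Ube2s. Of the 10 cyclin-CDK partners and opposing kinases, all detected at a median of 38.3 and 41.6 TPM, the Cdk-binding subunits Cks1b, at 358 and 371 TPM, and Cks2, at 266 and 276 TPM, were the highest. Cks1b was above Cdk1 in both libraries.

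The regulators that bind the promoter elements described above, with their relatives, were all detected (23 of 23) at a median of 19.3 TPM in both libraries. Rbbp4, a histone-binding subunit of MuvB, was at 261 TPM in replicate 1 and 239 TPM in replicate 2, and Tfdp1, the dimer partner of E2F factors, at 137 and 111 TPM. Recomputed on the most-read transcript, Rbbp4 averaged 111 TPM and stood below Tfdp1, at 131 TPM. CDK inhibitors were detected in 6 of 7 cases. Cdkn1c, which encodes p57, was at 559.6 and 456 TPM and Cdkn1a, which encodes p21, at 53.6 and 51.9 TPM, while Cdkn2a was listed at 0 in both libraries. On the most-read transcript Cdkn1a averaged 32.1 TPM, below Cdkn2d at 41.4 TPM. Condensin II was detected in full, with 3 of 3 subunits at a median of 18.3 and 18.9 TPM. Of 12 meiosis genes 2 were detected, Rec8, the meiotic cohesin subunit, at 5.41 and 7.39 TPM and Dmc1, a meiotic recombinase, at 2.01 and 2.43 TPM, where all 54 mitosis genes were. The median over the 12 was 0.195 TPM in replicate 1 and 0.085 TPM in replicate 2.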

How the data were processed

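Total RNA-seq of 2 E14.5 stomach libraries was used, replicates 1 and 2 of 1 group per the labels. Per the deposited notes, reads were assigned on mm10 with GENCODE M4 genes. The aligner, the counter and any use of strand are not given in the sources used. The authors deposited expected counts, which split reads shared by several features and are not normalized. Deposited TPM has the same total in each library, spike-ins included. Deposited posterior mean TPM and FPKM served as alternatives, and deposited percent values divide each gene among its transcripts. Bounds of the deposited TPM interval (a signal never below 0) were read but carry no result, and the deposited posterior SD of the count (a score) shows shared reads. Rows with a number for a name (26248, with 15.47 counts in replicate 1 and 25 in replicate 2) and 97 spike-in rows stayed out of library sizes.

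Of 43346 gene identifiers, 42462 matched a symbol. Positions, exon overlaps and transcript types are from GENCODE M21, also on mm10. Ratios used TMM sizes from edgeR 4.0.16 (R 4.3.3), and DESeq2 1.42.0 size factors and spike-in totals as alternatives. edgeR's common dispersion on rounded expected counts gave a coefficient of variation of 11.3% over 17510 genes whose mean count reached 10. Counting intervals are exact binomial (Clopper-Pearson, 95%, scipy 1.17.1) and cover counting error only, since reads without molecular identifiers are not independent molecules. Recomputed TPM divided each gene's reads by the effective length of its most-read transcript and was scaled again to the same total. Genes whose length did not change therefore differ slightly between the deposited and recomputed scales. Promoter letters were searched in RefSeq promoters. Only library sizes and ratios between the libraries were tested on simulated counts, with a spread set below the one estimated here. Over 1.5-fold, 88% of 50 genes simulated at a log2 change of 0.8 were called with the right sign, and 98% at 1.

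All members were named. Other pathway lists were given by counts and median with their 2 highest genes, and marker lists by counts or levels. The 5 highest and 5 lowest members by ratio were given in full. Members, lists and classes were chosen with earlier results of these data known.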

Additional observations from a re-analysis of the deposited data

How the results depend on the processing

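No paired analysis was possible because both libraries belong to 1 group. The count of members detected (54), of members over 1.5-fold or 2-fold apart (0) and of members with the same leading transcript (37) was the same under every alternative run for each.

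The median member level was 61.2 TPM over the mean of both libraries. It was 60.1 TPM with posterior mean TPM, 73.5 TPM with spike-ins and mitochondrial genes left out of the total, and 59.8 to 60.7 TPM with either library alone. It was 52.9 TPM on the length of the most-read transcript and 49.5 TPM on protein-coding transcripts, both chosen after seeing the data.

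The median log2 ratio of the members (-0.03) was 0.24 with spike-in sizes and 0.02 from deposited TPM, and it stayed below 0 with DESeq2 sizes and with 0.1 or 5 added to the counts. The ratio of condensin I to condensin II (1.27 on average) was 1.19 on the most-read transcript and 1.23 to 1.31 in single libraries. That of Cdc20 to Fzr1 (2.74) was 3.16 on the most-read transcript, 3.71 on protein-coding transcripts and 2.69 to 2.79 in single libraries. That of Ccnb1 to Ccnb2 (1.34) was 1.24, 1.21 and 1.28 to 1.40 in the same order. That of Birc5 to Incenp (6.73) was 7.24, 6.73 and 6.32 to 7.15, again in that order. The cause was not tested. Over all genes, 38 were over 2-fold apart at a mean count of 100 or more, 631 at 10 or more, 5064 with no minimum and 63 with spike-in sizes. Over 1.5-fold apart were 160, 1671, 7187 and 559 in the same order. With 2 libraries the spread of a level rests on 1 difference, and Kif18b, at 274 and 310 counts, has the widest counting interval.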
